A study of Oryza sativa with 6 samples.

Results

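Metallothioneins were read from 11 probe sets of 4 genes, MT2C, MT2B, MT1B and MT4A, among 57258 rice probe sets on 6 Affymetrix rice arrays. The members are the probe sets that the platform annotation lists with 1 of these genes alone. The genes were picked with results of the same arrays known, since MT2C and MT2B were among the largest differences, so the difference between BA-treated and untreated leaves is described for them without a test. Detached leaves (the third leaf of the plant) of the rice cultivar N22 (Nagina22), from plants 30 days old, were kept in darkness to bring on dark-induced senescence (DIS). The BA-treated group (3 arrays) stood in NaOH and Tween 20 with 2 mg/ml 6-benzyl adenine (BA, a synthetic cytokinin), and the untreated group (3 arrays) in NaOH and Tween 20 alone. The protocol and the paper give 72 h in the dark for both groups, although 1 label field says 2 h. Only N22 leaves and only 1 time point were arrayed, so a transcript that BA lowered from its level at the start and one that only the untreated leaves gained during DIS cannot be told apart.

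Metallothioneins are small proteins rich in cysteine, whose thiol groups hold copper, zinc and cadmium. They buffer these metals inside the cell, and plant metallothioneins also scavenge reactive oxygen species. Their transcripts are known to be abundant in leaves and to accumulate in senescing leaves of several plants, where metals and nutrients are withdrawn from the dying tissue. In rice, the protein known as OsMT2b acts as a scavenger of reactive oxygen and is repressed by the small GTPase OsRac1. Names of this family cross over between sources. The rice reference lists the gene called MT2C here also as OsMT2b, the gene called MT2B also as OsMT2c, and the gene called MT4A also as OsMT1b, so a symbol alone does not settle which gene is meant. The name OsMT4, in turn, is given there to MT21A and not to MT4A. The reference names 9 metallothionein genes in all, and MT4A and MT4C are separated by only 1 other annotated gene, with 24 genes between MT4A and MT4B. No sequence of a gene, protein or probe was at hand for these members.

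Each probe set has 1 signal per array, in linear units, with a constant already in the values, so that 16 was the lowest signal on every array. The ending of a probe set name gives its class: _at sets were designed against 1 transcript, _a_at sets match alternative transcripts of the same gene, _s_at sets match transcripts that can come from different genes, and some probes of _x_at sets also match other sequences. Of the 11 member probe sets 3 were of class _a_at, 5 of class _x_at and 3 of class _at, with 0 of class _s_at. Log2 changes given here are differences of the group means of log2(signal + 1), BA-treated minus untreated, with the standard error from limma.

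The arrays did not differ much as a whole, with median signals between 22.5 and 23.3 and a median log2 change of -0.0035 over the rice probe sets. They did differ in ways that ran with the treatment. The poly-A control RNAs, added before labeling, differed by -0.95 on the log2 scale between BA-treated and untreated arrays (27 probe sets). The hybridization controls differed by -0.44 (18 probe sets) and the 28S rRNA control by -1.44. The 28S control read 28.3 to 35.4 with BA and from 42.1 up to 346 without. Its difference rests largely on the 346 of untreated replicate 3. The part of these controls in the values below was not tested. The most alike arrays were BA replicates 2 and 3, whose log2 signals differed with an SD of 0.16, against 0.42 to 0.61 for the other pairs. The standard errors and SDs below count them as separate arrays, and whether they are independent was not tested. Of 19 leaf marker symbols 6 were measured. Their summed signal was 2280 to 2657 on BA-treated arrays and 1467 to 2741 on untreated arrays. Single signals ran from 17.3 to 2126 for leaf markers and from 16.2 to 79.9 for the 12 markers of seed, pollen or anther and root. The leaf marker PORA stayed at 17.3 to 26.2. RBCS (28.7 on untreated replicate 2) and PORB (48.0 on untreated replicate 1) also came into the range of the other tissues. The brightest leaf marker, CAB2R (up to 2126), was the 1 with a log2 change below 0 (-0.20), and the other 5 lay above 0. PETC read 370, 386 and 360 with BA against 130, 202 and 209 without (adjusted p = 0.15 by limma). RCA read 390, 408 and 376 with BA against 173, 219 and 303 without (adjusted p = 0.31 by limma). In whole leaves, a lower signal from fewer expressing cells and one from less RNA per cell cannot be told apart.

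MT2C had the lowest log2 change of all 57258 probe sets. Its brightest probe set, Os.12791.2.S1_a_at, gave signals of 65.9, 115 and 129 on the BA-treated arrays, against 7682, 4708 and 8912 on the untreated arrays. The groups did not overlap, and the lowest untreated signal stood far above the highest BA-treated one. The mean was 103 ± 33.1 in BA-treated leaves and 7101 ± 2162 in untreated leaves (SD, n = 3 arrays each). On the log2 scale the difference was -6.09 (standard error 0.34), or 68.3-fold lower with BA. Averaged over its 5 probe sets, MT2C had -5.02.

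The other 4 probe sets of MT2C lay on the same side. Os.12791.1.S1_a_at read 25.0, 43.0 and 39.7 with BA and 1453, 1063 and 1934 without. Os.12791.4.S1_x_at read 27.5, 36.4 and 43.2 with BA and 1076, 846 and 1536 without. For both, BA-treated leaves came close to the constant of 16, and the groups stood far apart. Os.12791.2.S1_x_at read 21.1, 29.0 and 29.3 with BA and 703, 482 and 805 without. Os.14153.3.S1_x_at read 44.0, 51.0 and 54.3 with BA and 811, 672 and 1252 without. The 5 log2 changes lay between -6.09 and -4.12, or 17.4- to 68.3-fold lower, and in the order of all rice probe sets from the lowest change up they took places 1, 3, 4, 6 and 7. The BA-treated signals hold the constant and, for the dimmer sets, come near the array medians, so these folds depend on it and understate the difference of what lies above it. With 15 units taken off every signal before the log2, the 5 changes lay between -6.36 and -4.65. Of the 5 sets 2 are of class _a_at and 3 of class _x_at, and MT2C had no probe set of class _at.

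MT2B came next. Its brightest probe set, Os.12410.1.S1_a_at, read 34.6, 39.1 and 46.6 on the BA-treated arrays, against 782, 549.6 and 496 on the untreated arrays. BA-treated arrays averaged 40.1 ± 6.08 and untreated arrays 609 ± 152 (SD, n = 3 each), and the log2 change was -3.88 (standard error 0.20), or 14.7-fold lower, and the groups did not overlap. Os.12410.3.S1_x_at read 30.9, 33.5 and 35.9 with BA and 597, 457 and 396 without, a log2 change of -3.79. Os.12410.1.S1_x_at read 31.8, 38.9 and 39.8 with BA and 457, 412 and 329.6 without, a log2 change of -3.40. These 3 probe sets took places 9, 13 and 16 in the order of changes. Here too the size depends on the constant and on the probe sets used: with 15 units taken off, the brightest set had -4.57, or 23.7-fold lower, and the mean over all 4 MT2B probe sets was -2.78.

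The remaining MT2B probe set, and the only one of class _at, did not follow. Os.12410.2.S1_at read 21.4, 19.3 and 19.7 with BA and 19.9, 21.9 and 21.5 without, a log2 change of -0.06 (standard error 0.08). The groups overlapped, and on all 6 arrays the signal sat just above the constant, so this probe set gave little reading in either group. The log2 change of MT2B therefore rests on the _a_at and _x_at sets. How much of their signal comes from other type 2 transcripts was not tested.

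**Figure D1:**
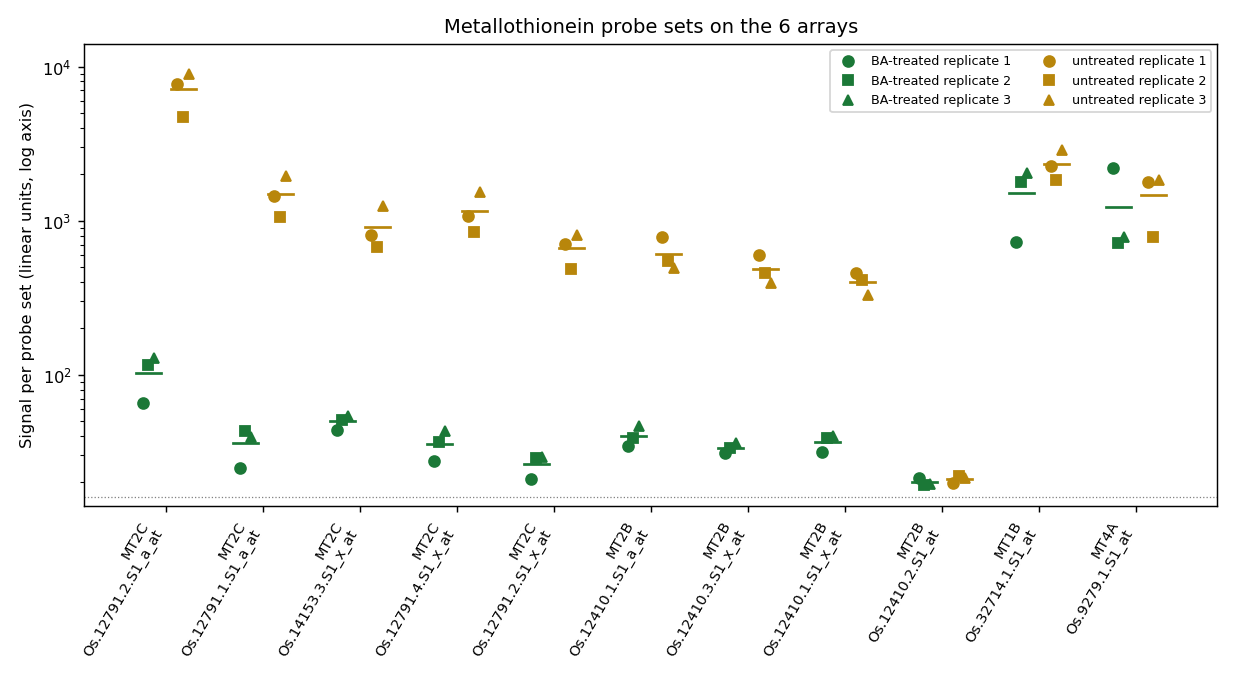
Signals of the 11 metallothionein probe sets (linear units on a log axis) on the BA-treated arrays (green, left) and the untreated arrays (gold, right), with 1 point per array and a line at the group mean; the dotted line marks the constant of 16. The 5 MT2C sets and 3 of the 4 MT2B sets are separated by group, while Os.12410.2.S1_at lies at 19.3 to 21.9 in both groups and MT1B and MT4A overlap.

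The untreated arrays ranked differently for the type 2 genes. All 5 MT2C probe sets were highest on untreated replicate 3 and lowest on untreated replicate 2, and the brightest differed by 0.92 between these arrays on the log2 scale. In contrast, the 3 MT2B probe sets with signal were highest on untreated replicate 1 and lowest on untreated replicate 3, with a range of 0.47 to 0.66 on the log2 scale. Within the BA-treated group all 8 of these probe sets were lowest on BA replicate 1. For the brightest MT2C probe set BA replicate 1 lay -0.88 from the mean of BA replicates 2 and 3 on the log2 scale, and for the brightest MT2B probe set -0.30.

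MT1B, a type 1 metallothionein gene with a single probe set of class _at (Os.32714.1.S1_at), overlapped between the groups. It read 731, 1786 and 2046 with BA, against 2258, 1832 and 2855 without. BA replicate 1 was the low array, and the other 2 BA-treated arrays came close to or above the lowest untreated one. BA-treated arrays averaged 1521 ± 696 and untreated arrays 2315 ± 514 (SD, n = 3 each), and the log2 change was -0.71 (standard error 0.42). Without BA replicate 1 this was -0.25, and without BA replicate 3 it was -0.99.

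MT4A, also read from 1 probe set of class _at (Os.9279.1.S1_at), varied more within the groups than between them. Its signal was 2187, 718 and 787 with BA, against 1783, 779 and 1847 without. Here BA replicate 1 was the high array rather than the low one, and untreated replicate 2 lay between the other 2 BA-treated arrays. BA-treated arrays averaged 1231 ± 829 and untreated arrays 1469 ± 599 (SD, n = 3 each), and the log2 change was -0.35 (standard error 0.54), which moved from -0.86 without BA replicate 1 to -0.06 without BA replicate 2. A further probe set that the annotation lists with MT4A and another gene, Os.37924.1.S1_x_at, is no member by the rule. It was likewise highest on BA replicate 1, at 1437, 964 and 965 with BA against 1095, 692 and 898 without.

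**Figure D2:**
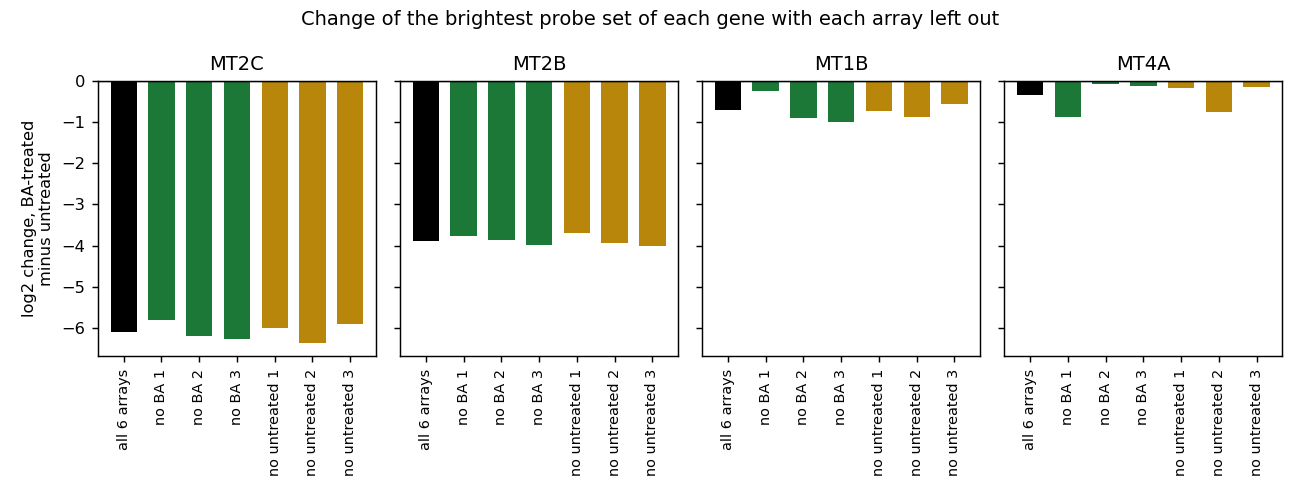
Log2 change (BA-treated minus untreated) of the brightest probe set of MT2C, MT2B, MT1B and MT4A over all 6 arrays (black bar), with each BA-treated array left out (green) and with each untreated array left out (gold). MT2C stays between -6.37 and -5.80 and MT2B between -4.01 and -3.68, whereas MT1B runs from -0.99 to -0.25 and MT4A from -0.86 to -0.06.

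In all, 8 of the 11 member probe sets lay lower on every BA-treated array than on any untreated array, 5 of MT2C and 3 of MT2B, and 3 overlapped. Over all rice probe sets the share with no overlap and lower with BA was 7.3% (4179 of 57258). The genes were picked from this same contrast, so nothing is read from that difference. The median log2 change over the 11 member probe sets was -3.88.

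The 5 other metallothionein genes of the reference are no members, and 3 of them had probe sets of their own: MT2A, MT1A and MT4C. They were named after their values were seen. MT2A, another type 2 gene, read 266, 734 and 745 with BA on its brightest probe set, Os.46398.1.S1_s_at, against 1206, 1863 and 1810 without. The groups did not overlap, and BA replicate 1 was again the lowest. On the log2 scale this came to -1.60 (standard error 0.44), which did not pass limma's test over all rice probe sets (adjusted p = 0.35, between 0.14 and 0.69 over the settings tried). A second MT2A probe set, Os.35005.1.S1_x_at, gave -1.73 (adjusted p = 0.27 from limma). These 2 sets are of class _s_at and _x_at, and how much of their signal comes from transcripts of other genes was not tested. The other 2 MT2A probe sets, both of class _at and near the constant, gave -0.42 (Os.35005.1.S1_at) and 0.02 (Os.46398.1.S1_at), with an adjusted p of 0.23 and 0.97 from limma.

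MT1A, a type 1 gene, read 2253, 2522 and 2855 with BA, against 2340, 1928 and 2800 without, on a single probe set of class _at, Os.3445.1.S1_at. The groups overlapped, and limma gave a log2 change of 0.12 (standard error 0.16) at an adjusted p of 0.92. MT4C, on Os.37783.1.S1_a_at, read 72.4, 68.2 and 72.5 with BA, against 528, 43.9 and 97.5 without. Untreated replicate 1 stood apart. The same array was the high one on Os.37783.2.S1_x_at, which is listed with MT4C, MT4B and another gene and read 37.4, 33.9 and 37.2 with BA, against 185, 21.6 and 44.4 without. For MT4C limma gave a log2 change of -0.88 (standard error 0.86) at an adjusted p of 0.89. MT4B was listed with no probe set of its own, and no probe set was matched to MT21A.

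**Figure D3:**
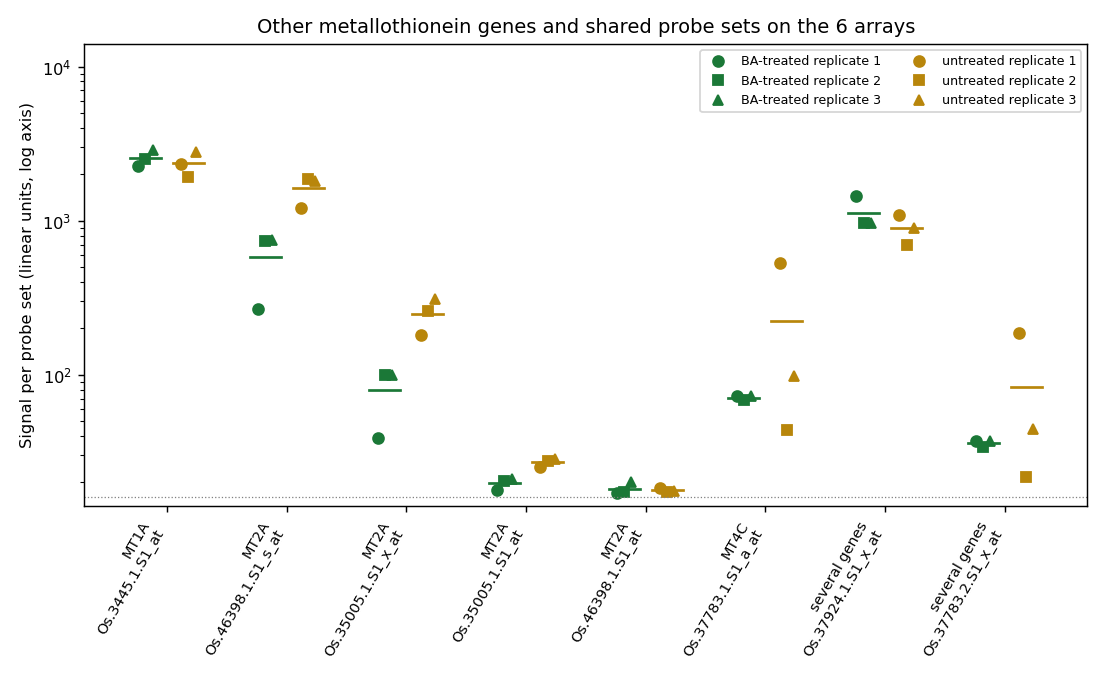
Signals of the probe sets of MT1A, MT2A and MT4C and of the 2 probe sets listed with several genes (linear units on a log axis; BA-treated arrays in green on the left, untreated arrays in gold on the right, lines at the group means). The 2 brighter MT2A sets and Os.35005.1.S1_at are separated by group, MT1A overlaps at 1928 to 2855, and untreated replicate 1 stands alone for MT4C at 528.

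**Figure D4:**
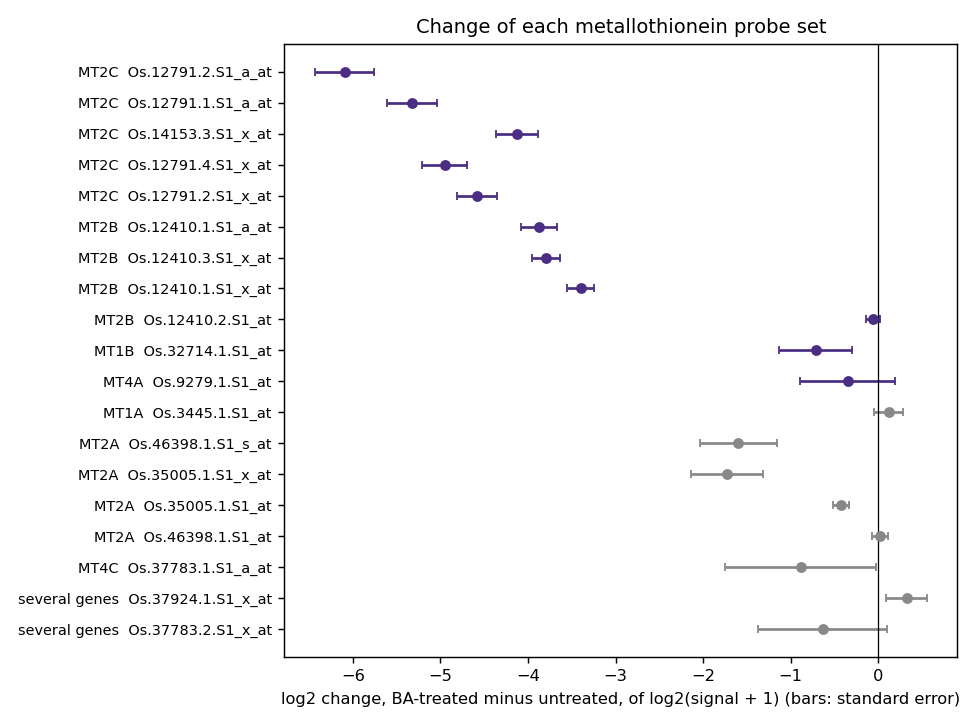
Log2 change (BA-treated minus untreated) of each metallothionein probe set with its standard error, the 11 members in purple and the other family probe sets in grey. The probe sets of the type 2 genes MT2C and MT2B lie between -6.09 and -3.40 apart from Os.12410.2.S1_at at -0.06, and those of MT1B, MT4A, MT1A and MT4C lie between -0.88 and 0.12. Those of MT2A, also a type 2 gene, lie at -1.73, -1.60, -0.42 and 0.02.

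The profiles over the 6 arrays were set against those of 2431 named genes, each centered on its own mean, and the root mean square difference on the log2 scale was taken as the measure of likeness. The gene nearest to MT2C was MT2B at 1.17, followed by OsPIP2;6, a plasma membrane aquaporin, at 1.38 and ASMT at 1.83. No named gene came closer to MT2C than 1.17, against 0.64 or less for the nearest gene of the other members. The profiles were not scaled, so this measure grows with the size of the change for which MT2C and MT2B were picked. Nothing is therefore read from the distances of MT2C and MT2B or from which genes lie near them. Nearest to MT2B were OsPIP2;6 at 0.64, the calmodulin-like gene CML29 at 0.83 and VIT2, a vacuolar iron transporter, at 0.88. OsPIP2;6 read 41.9, 27.5 and 29.3 with BA against 331, 259.8 and 695 without, a log2 change of -3.56, and CML29 read 63.2, 43.9 and 45.2 with BA against 260.0, 244 and 289 without, a log2 change of -2.37.

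For MT1B the nearest were Lsi6, a silicon transporter, at 0.13, a ceramidase gene at 0.22 and ARF10, an auxin response factor, at 0.24. Lsi6 read 34.2, 87.4 and 90.9 with BA, against 111, 109 and 139 without, and so shared the low BA replicate 1. For MT4A they were ITPK1 at 0.28, OsTrxm5, an m-type thioredoxin, at 0.32 and IAA1, an auxin response repressor, at 0.32. ITPK1 read 204, 105 and 111 with BA and 169, 99.4 and 182 without, with the same high BA replicate 1 and low untreated replicate 2.

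Genes of metal homeostasis, cysteine supply and reactive oxygen metabolism were taken from 5 lists that hold no metallothionein. Of 69 measured genes 31 had a log2 change above 0 and 38 below, with a median of -0.03. By limma 0 were called at an adjusted p under 0.05, against 0.159% of all rice probe sets (91), and an unadjusted p under 0.05 was found for 6 higher and 7 lower genes, against 8.48% of all rice probe sets (4858). At more than 1.5-fold with an unadjusted p under 0.05, the thresholds of the study, 4 were higher and 4 lower, against 3.89% of all rice probe sets (2227). An ordinary pooled-variance test called 0 of the 69 after adjustment, but it called only 1 of all rice probe sets, so nothing is read from this 0. The count of 91 depended on BA replicates 2 and 3, the most alike arrays, both being in the fit. Limma called 0 rice probe sets without BA replicate 2, without BA replicate 3 or with these 2 averaged. It called 142 without BA replicate 1, and 66, 123 and 75 without untreated replicates 1, 2 and 3.

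Among 39 metal transporters, an unadjusted p under 0.05 from limma was found for 5 higher and 6 lower genes, against 8.48% of all rice probe sets. After adjustment 0 were called, against 0.159% of all rice probe sets. Groups that did not overlap were found for 5 higher and 7 lower transporters, against 14% of all rice probe sets in either direction. The lists hold 1 bright probe set per gene while these shares cover every probe set, so nothing is read from the difference. HMA5, a copper-transporting ATPase, read 22.3, 31.7 and 32.5 with BA, against 81.5, 70.5 and 91.1 without. Limma put the log2 change at -1.47 (adjusted p = 0.069, lowest 0.034 under array weights and highest 0.35 among the settings). YSL9, of the yellow stripe-like family that carries metals bound to nicotianamine, read 26.0, 35.0 and 32.0 with BA and 60.7, 76.8 and 79.9 without (-1.20 on the log2 scale, adjusted p = 0.083 by limma, range 0.041 to 0.43). VIT2 read 27.2, 24.0 and 23.6 with BA and 179, 72.3 and 204 without (-2.43 on the log2 scale, adjusted p = 0.13 by limma). Without untreated replicate 2 the adjusted p of VIT2 was 0.021 by limma, the lowest over the settings tried, of which the highest was 0.54. On the other side, the copper transporter gene COPT1 read 284, 517 and 501 with BA and 134, 154 and 203 without (1.37 on the log2 scale, adjusted p = 0.2 by limma), and ZIP6, of the family that takes up zinc and iron, had 0.83 (adjusted p = 0.27 by limma). These 5 genes were among the 12 whose groups did not overlap.

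The 7 genes of metal chelation and storage had a median log2 change of -0.13. By limma 0 of them were called, against 0.159% of all rice probe sets, and 0 had an unadjusted p under 0.05, against 8.48%. At these shares nothing is read from a 0 in a list of 7 genes, or of 3 as below. NAS2 and NAS3, nicotianamine synthases, had log2 changes of -0.39 (adjusted p = 0.64 from limma) and -0.13 (adjusted p = 0.81), both near the constant. NAAT1, which makes the precursor of the phytosiderophores, had 0.58 (adjusted p = 0.84 from limma), and CCS, the copper chaperone of superoxide dismutase, 0.14 (adjusted p = 0.9). For the metal response regulators the values were 0.49 for SPL9, 0.28 for the factor listed as both IRO3 and OsIRO2, and -0.08 for IDEF1, with 0 of 3 called or under 0.05 unadjusted (lowest adjusted p = 0.74 from limma). In the cysteine supply list the cysteine synthases RCS1 and RCS3 had 0.15 and -0.19 and SAT1 had -0.42, with 0 of 3 called or under 0.05 unadjusted (lowest adjusted p = 0.79 from limma).

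Of 17 genes of reactive oxygen metabolism, 10 were above 0 and 7 below, with a median of 0.16. By limma 0 were called, against 0.159% of all rice probe sets. An unadjusted p under 0.05 was found for 1 higher and 1 lower gene, against the 8.48% of all rice probe sets. The copper/zinc superoxide dismutase SODCC2 had 0.33 on the log2 scale (adjusted p = 0.67 by limma) and the manganese enzyme SODA -0.41 (adjusted p = 0.67). The ascorbate peroxidase APX8 had -0.39 (adjusted p = 0.54 by limma). Catalase CATA read 2850, 3005 and 2774 with BA, against 1629, 1442 and 399 without, and had 1.55 (adjusted p = 0.49 by limma). Untreated replicate 3 was the low array, and without it CATA had 0.91 (adjusted p = 0.074 by limma, the lowest over the settings tried, of which the highest was 0.98).

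**Figure D5:**
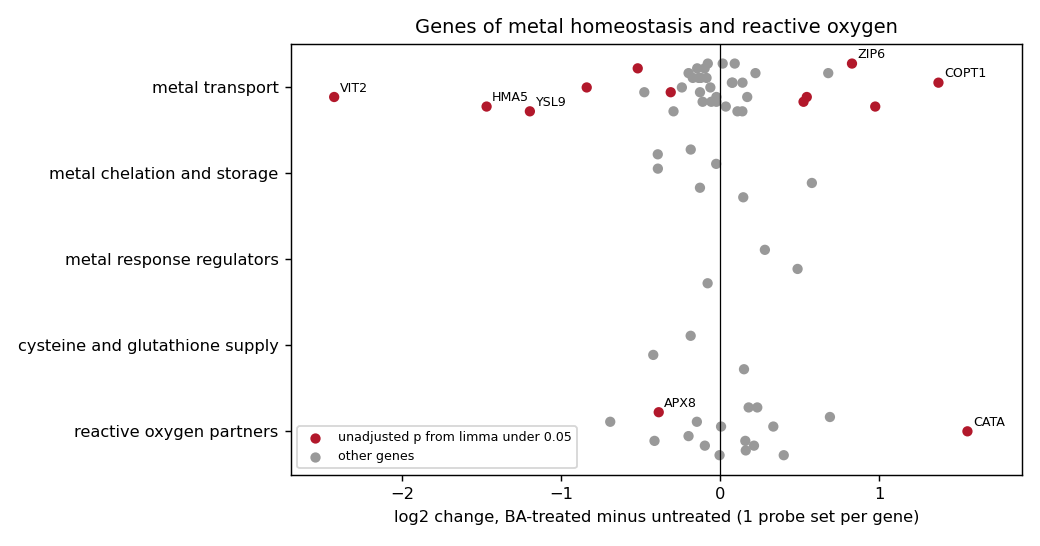
Log2 change (BA-treated minus untreated, 1 probe set per gene) of 69 genes in 5 lists of metal homeostasis and reactive oxygen, in red where the unadjusted p from limma is under 0.05. The points run from -2.43 for VIT2 to 1.55 for CATA (0.91 without untreated replicate 3), and none of the genes had an adjusted p under 0.05.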

How the data were processed

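Total RNA of BA-treated and untreated leaves (3 arrays each) was labeled with biotin and hybridized. The values deposited by the authors are linear intensities, 1 for each probe set on each array, made with PLIER and variance stabilization. RMA, too, is listed in the submitters' processing notes, but its use, tool versions and any scaling between arrays were not given in the sources used here. Deposited intensities were used without further normalization as log2(signal + 1), and 123 control probe sets were left out.

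The fit used lmFit and eBayes of limma 3.58.1 under R 4.3.3 and was tested on simulated data. The simulated arrays were drawn independently, so arrays as alike as BA replicates 2 and 3 were not covered by it. P-values were adjusted by the Benjamini-Hochberg method across all 57258 rice probe sets, and those under 0.05 were called. Of these probe sets 22436 were listed with 1 gene (17905 genes, of which 2431 carry a name in the reference assembly ASM3414082v1). The brightest probe set stood for a gene. Named were all member probe sets, the 3 named genes with the nearest profile to each member, and from each list up to 4 genes by smallest unadjusted p, with no more than 2 in either direction. Members and lists were chosen with earlier results of these data known. Of 172 symbols in the 5 lists, 5 matched genes were taken out, after the files were read, because other names of theirs in the reference belong to another function. The paper states that the replicates are biological, and the number of arrays limits the precision.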

Additional observations from a re-analysis of the deposited data

How the results depend on the processing

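MT2C and MT2B stayed below 0 under 2 log offsets, 2 normalizations, each array left out and BA replicates 2 and 3 averaged. On their brightest probe sets the groups did not overlap, so offsets, left-out arrays and averaging could not change this sign. Both genes were also picked from this contrast, so nothing is read from the sign. MT1B and MT4A were below 0 too, but MT4A lay within its standard error of 0 already on all 6 arrays (-0.35, standard error 0.54). The replicate block cannot change these values, nor can the choice of probe set for MT1B and MT4A, which have 1 each. The log2 change of MT2C was -5.02 with the mean of its probe sets, and that of MT2B was -2.78. With offset 16 MT2B had -3.46, with offset -15, which takes most of the constant off, -4.57, and with its _at probe set alone -0.064, which is within its standard error of 0.08. MT2C has no probe set of class _at, so no value could be had. With 1 array left out, MT2C lay between -6.37 and -5.80, MT2B between -4.01 and -3.68, MT1B between -0.99 and -0.25, MT4A between -0.86 and -0.06, and 8 to 9 member probe sets did not overlap (7.3% of all rice probe sets lower without overlap on 6 arrays, 10.3% to 13.7% with 1 left out). Of the metal and oxygen lists limma called 2 genes with eBayes trend (HMA5 and VIT2), 2 with array weights (HMA5 and YSL9), and 0 to 1 with 1 array left out (VIT2 without untreated replicate 2). Over all rice probe sets 91 were called, against 48 with offset -15, 136 with eBayes trend and 280 with array weights. The array weights were 2.17 and 2.46 for BA replicates 2 and 3, the most alike arrays, and 0.53 to 0.85 for the others. With BA replicates 2 and 3 averaged 0 were called, and an ordinary pooled-variance test called 1. With 1 array left out 0 to 142 were called, the 0 coming without BA replicate 2 or 3. The cause of these shifts was not tested.

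With the replicate number as a block 0 rice probe sets and 0 list genes were called. Deviations from the group means correlated at 0.42, -0.01 and 0.42 for replicates 1, 2 and 3. Pairs of unlike number lay between -0.40 and 0.27, the highest being BA replicate 2 with untreated replicate 3. BA replicates 2 and 3 were the most alike arrays, so these values do not settle whether the numbers pair the arrays. The main fit did not pair them.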

Other observations

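Further metal transporters outside the rule for named genes, chosen after their values were seen, also lay apart between the groups. NRAMP6 read 106, 126 and 124 in BA-treated leaves, against 89.8, 51.4 and 45.9 in untreated leaves, and limma put the log2 change at 0.97 (adjusted p = 0.33). NRAMP3, of the same family of divalent metal transporters, read 57.3, 86.2 and 67.7 with BA and 53.4, 43.4 and 47.8 without, with 0.52 on the log2 scale (adjusted p = 0.44 by limma). YSL16 read 86.6, 87.3 and 98.4 with BA and 157, 240.0 and 115 without, with -0.84 on the log2 scale (adjusted p = 0.43 by limma). By limma 0 of these 3 passed, against 0.159% of all rice probe sets. Each had an unadjusted p under 0.05 from limma, against 8.48% of all rice probe sets. They were picked by their values, so nothing is read from this. Lower with BA and without overlap were also TOM1 (-0.31 on the log2 scale), CAX1A (-0.29) and HMA4 (-0.24). CAX2 (0.54) was higher without overlap.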
